A study of Mus musculus with 12 samples.

Results

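The genes described here are the adult globins and other genes of red blood cells, read in mouse thymus. The set held 9 genes: the alpha globins Hba-a1 and Hba-a2, the beta globins Hbb-bt, Hbb-bs, Hbb-b1 and Hbb-b2, and Alas2, Slc4a1 and Bpgm. A probe set, the group of probes on an array that reads 1 transcript or a family of like transcripts, was taken when the platform gene table gave it one of these symbols, alone or among several. That rule found 15 of 45101 probe sets, 11 with 1 symbol and 4 with several. The genes were picked with their values on these arrays already known, so the levels below are a description, and the adjusted p-values are not independent evidence that these genes differ.

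RNA of whole thymus, 10 µg per labelling, came from mice of 7 to 8 weeks and was read on 12 one-colour Affymetrix arrays, 3 biological replicates in each of 4 groups. The groups are written as in the labels: XX (female), XXsry (XX with Sry, male), XY- (a Y marked as lacking Sry, female) and XY-sry (the same complement with Sry, male). As background, this naming is that of the FCG mouse model, in which testes form where an Sry transgene is present, whichever sex chromosomes the animal has. The labels give no strain, transgene site or litter, and name no treatment. Presence of Sry and gonadal sex are therefore the same contrast here and cannot be told apart. The question was how sex chromosome complement bears on gene expression outside the sex chromosomes.

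Hemoglobin is a tetramer of alpha and beta globin chains, each holding a haem group. Developing red cells make globin messenger RNA in very large amounts, and reticulocytes, the youngest circulating red cells, still carry it after they lose their nucleus. Alas2 catalyses the first step of haem synthesis in erythroid cells, and Slc4a1 (band 3) is the anion exchanger of the red cell membrane. Bpgm makes the bisphosphoglycerate that lowers the oxygen affinity of hemoglobin. In an adult mouse red cells form mainly in bone marrow and spleen, and a dissected thymus contains blood in its vessels. A bulk array cannot tell more cells of a type from more RNA per cell.

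In RefSeq on GRCm38.p6, Hba-a1 lies at chr11:32283672-32284486 and Hba-a2 at chr11:32296492-32297310. Hbb-bt lies at chr7:103812524-103813923 and Hbb-bs at chr7:103826523-103827928, both on the minus strand. Alas2 is at chrX:150547417-150570622, Slc4a1 at chr11:102348820-102365281 and Bpgm at chr6:34476356-34505136. The 150 bases before the start of 5 genes are shown because the globins and Alas2 varied together across arrays in the values given further on, and Bpgm is set beside them as a red cell gene with a narrow range. Each is 5′ to 3′ on the gene's strand, at chr11:32283522-32283671 (plus strand), chr7:103813924-103814073 (minus), chr7:103827929-103828078 (minus), chrX:150547267-150547416 (plus) and chr6:34476206-34476355 (plus), in the order printed. Capitals mark every match on either strand to CACCC (a Klf1-type site of red cell genes), to CCAAT (a general promoter box), to AGATAA (a site of the Gata1 type) or to ATATAA (a form of the TATA box).
Hba-a1: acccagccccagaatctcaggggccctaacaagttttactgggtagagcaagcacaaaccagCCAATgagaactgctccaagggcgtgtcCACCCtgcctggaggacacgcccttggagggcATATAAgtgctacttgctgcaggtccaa
Hbb-bt: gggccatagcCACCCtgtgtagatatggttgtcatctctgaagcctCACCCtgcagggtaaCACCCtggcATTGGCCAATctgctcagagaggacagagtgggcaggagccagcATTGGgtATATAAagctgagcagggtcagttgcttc
Hbb-bs: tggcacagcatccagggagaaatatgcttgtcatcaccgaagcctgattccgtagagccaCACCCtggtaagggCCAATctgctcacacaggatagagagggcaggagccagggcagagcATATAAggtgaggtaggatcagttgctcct
Alas2: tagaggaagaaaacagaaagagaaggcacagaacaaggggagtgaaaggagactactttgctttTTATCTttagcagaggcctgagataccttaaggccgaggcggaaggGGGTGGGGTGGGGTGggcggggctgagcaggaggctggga
Bpgm: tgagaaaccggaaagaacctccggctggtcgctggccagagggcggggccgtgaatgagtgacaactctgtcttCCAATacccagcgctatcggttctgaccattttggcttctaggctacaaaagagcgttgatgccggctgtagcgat

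The globin promoters held at least 1 match to CACCC, at least 1 match to CCAAT and 1 match to ATATAA in this window. In Hba-a1 the ATATAA match lay 28 to 23 bases before the start, in Hbb-bt 29 to 24 and in Hbb-bs 30 to 25. The Hba-a2 entry shares a run of 297 of 300 bases with that of Hba-a1, shifted by 3 bases. Alas2 had 3 CACCC matches and 1 AGATAA match, all on the other strand, and no ATATAA, while Bpgm had 1 CCAAT match only. Of 32843 mouse promoters of the same length, 37.4% held CACCC, 24.5% held CCAAT, 5.65% held AGATAA and 5.36% held ATATAA, so the first pair is common. A match is a run of letters and not a measured site, and no capital in this window overlaps the match of another motif. Slc4a1, Hbb-b1 and Hbb-b2 are named only.

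Of the 15 probe sets, 7 averaged at least 5 (log2) across the arrays and entered the tests: 3 for alpha globin, 1 for beta globin and 3 for Bpgm. The 8 below that level read Alas2, Slc4a1 (3 probe sets), Hba-a1, Hba-a2 and Hbb-b2 (2 probe sets). Values of Alas2 and the other 7 come from a fit without the filter where a difference is given for them. The 4 globin probe sets that passed each list several symbols, so the near-identical copies Hba-a1 and Hba-a2, and Hbb-bt, Hbb-bs, Hbb-b1 and Hbb-b2, cannot be told apart by them. All values are log2, on which 1 unit is a factor of 2, and levels are set against each other only within a probe set.

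The labelled tissue was borne out by its markers. The recombinase gene Rag1 (mean 11.85), the terminal transferase gene Dntt (11.64) and Cd8a (11.36) lay near the top of the arrays' range, whose highest values were 13.07 to 13.31, and Foxn1, the factor of thymic epithelium, had a mean of 6.08. Xist was 11.10 to 11.63 in the XX and XXsry arrays and 3.41 to 4.19 in the others, and the Y-linked Eif2s3y was 1.77 to 2.28 against 7.14 to 8.17. The Sry probe set read 6.74 to 7.20 in the groups labelled with Sry and 5.23 to 5.65 in those without, so each array fell on the side its label gives. Array medians were 4.02 to 4.10, and the number of arrays limits precision. Nothing beyond the term biological replicate says how the animals were kept or whether they shared litters.

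Alpha globin was present in every thymus and differed several-fold between them. The probe set 1428361_x_at, the alpha globin one with the highest mean, read 9.64, 9.86 and 9.37 in XX replicates 1 to 3, and 10.87, 11.56 and 10.94 in XXsry. It read 9.63, 10.67 and 10.45 in XY- and 10.61, 12.61 and 10.36 in XY-sry. All XXsry arrays lay above all XX and all XY- arrays, all XY-sry arrays lay above all XX arrays, and XY-sry overlapped both XY- and XXsry. These separations, in 4 of the 7 red cell probe sets tested, were also found in 10.8%, 12.2% and 13% of all probe sets tested. XY-sry replicate 2 was the highest array and XX replicate 3 the lowest, 9.45-fold apart. The group means were 9.62 ± 0.245 in XX, 11.12 ± 0.380 in XXsry, 10.25 ± 0.548 in XY- and 11.19 ± 1.233 in XY-sry (SD, n = 3). In the order of the means XX, XY-, XXsry, XY-sry, the ranges of the neighbours XX and XY- overlap, XY- and XXsry are separate, and XXsry and XY-sry overlap.

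The other alpha globin probe sets gave the same picture. The values of 1452757_s_at were 9.60, 9.79 and 9.31 in XX, 10.83, 11.48 and 10.86 in XXsry, 9.55, 10.51 and 10.40 in XY-, and 10.54, 12.39 and 10.21 in XY-sry. Those of 1417714_x_at, which reads the same genes with a wider spread, were 7.75, 8.07 and 7.55 in XX, 9.20, 10.02 and 9.33 in XXsry, 7.92, 8.93 and 8.71 in XY-, and 8.92, 11.53 and 8.59 in XY-sry. From XX replicate 3 to XY-sry replicate 2 the fold range was 8.46 and 15.8 in these probe sets.

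Beta globin, the partner chain, followed. Its probe set 1417184_s_at, which lists Hbb-bt, Hbb-bs, Hbb-b2 and Hbb-b1, read 9.34, 9.51 and 9.11 in XX and 10.50, 11.15 and 10.55 in XXsry. In XY- it read 9.34, 10.23 and 10.10, and in XY-sry 10.24, 12.39 and 9.96, a 9.71-fold range with the same arrays at its ends. XY-sry replicate 2 stood apart from the next array, XXsry replicate 2, by 1.24 in beta globin and by 1.05, 0.91 and 1.51 in the alpha globin probe sets. In all 4 probe sets the arrays in ranks 1 to 4 were XY-sry replicate 2 and XXsry replicates 2, 3 and 1, and XX replicate 3 was last.

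**Figure D1:**
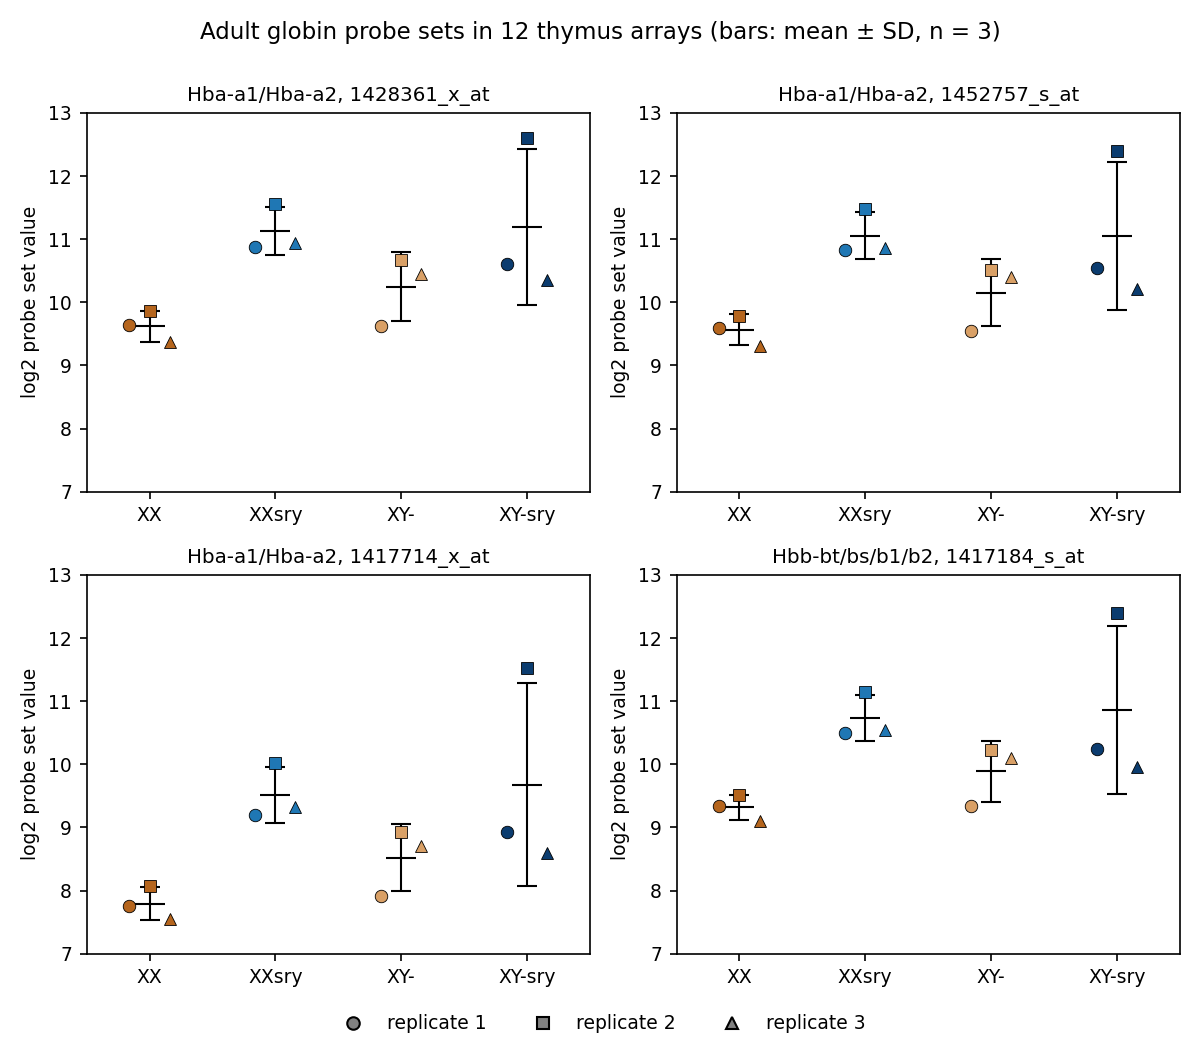
Log2 value of the 4 adult globin probe sets above the filter in each of 12 thymus arrays (y axis), by group (x axis); marker shape gives the replicate, and bars give the mean ± SD of 3 arrays. XXsry lies above XX without overlap in every panel, and XY-sry replicate 2 is the highest point in each, at 12.61, 12.39, 11.53 and 12.39.

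Low-signal globin probe sets gave little. Hba-a2 on 1427219_at (3.55 to 3.76), Hba-a1 on 1453574_at (2.49 to 2.97) and Hbb-b2 on 1427865_at (3.54 to 4.13) stayed near or below the array medians in all 12 arrays. The Hbb-b2 probe set 1427866_x_at was as dim, at 2.22, 2.24 and 2.27 in XX, 2.63, 2.65 and 2.65 in XXsry, 2.16, 2.21 and 2.36 in XY- and 2.36, 3.52 and 2.29 in XY-sry. Its highest array was again XY-sry replicate 2, and XXsry again lay above XX and XY- without overlap. Embryonic globins, from a list of other globin genes and their chaperone of which 3 of 7 genes were matched, were also low: Hba-x 3.21 to 3.73, Hbb-y 2.30 to 2.97 and Hbb-bh1 3.05 to 3.59, with none above the filter.

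Alas2, the erythroid enzyme of haem synthesis, was near background in 11 arrays and clear in 1. Its probe set 1451675_a_at read 3.28, 3.10 and 3.11 in XX, 3.22, 3.75 and 3.50 in XXsry, 3.16, 3.28 and 3.52 in XY-, and 3.44, 6.09 and 3.48 in XY-sry. The value of 6.09 belongs to XY-sry replicate 2, the array with the highest globin, and lies 2.34 (5.06-fold) above the next array, XXsry replicate 2. Of 27112 probe sets below the filter it was the only 1 whose highest array stood that far above the second. The other 2 XY-sry arrays lay within the range of XXsry and XY-.

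Slc4a1, the membrane anion exchanger, showed no such array. Its probe sets ran from 2.50 to 3.04 (1416464_at), 2.51 to 2.77 (1431743_a_at) and 2.15 to 2.61 (1434502_x_at), all below the array medians. In XY-sry replicate 2 they read 2.86, 2.69 and 2.33, within the range of the other arrays. Bpgm was well above the filter and nearly flat. Its probe set 1415864_at read 7.30, 7.25 and 7.29 in XX, 7.10, 7.28 and 7.26 in XXsry, 7.35, 7.14 and 7.22 in XY-, and 7.48, 7.32 and 7.23 in XY-sry. The groups overlap, and its other probe sets ran from 7.06 to 7.36 and from 6.57 to 6.98.

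**Figure D2:**
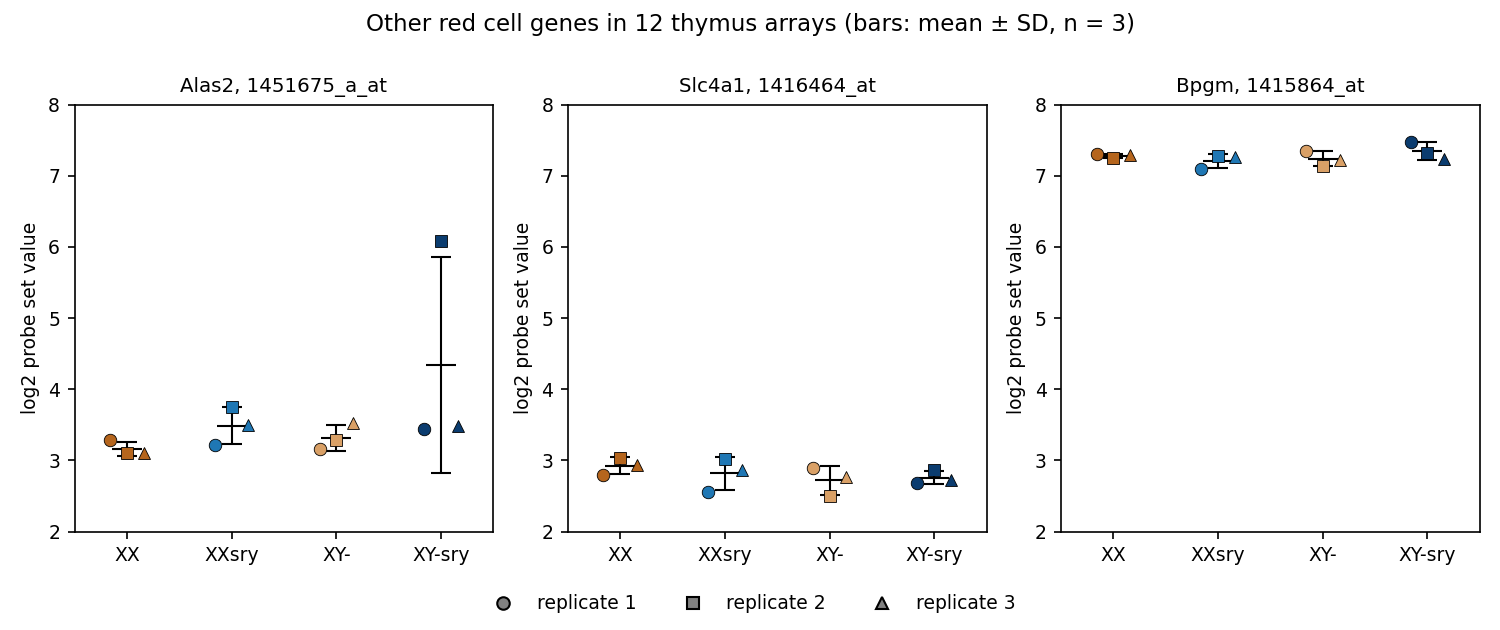
Log2 value of Alas2, Slc4a1 and Bpgm, each by its brightest probe set on average, in 12 arrays (y axis) by group (x axis), with mean ± SD of 3 arrays and marker shape for the replicate. Alas2 has 1 array, XY-sry replicate 2, at 6.09 and the rest at or below 3.75, while Slc4a1 (2.50 to 3.04) and Bpgm (7.10 to 7.48) keep to narrow ranges.

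Arrays of one group lay far apart in globin. The pooled within-group SD of the globin probe sets was 0.680 to 0.886, at ranks 11 to 20 of the 17925 probe sets tested, where the median probe set had 0.0972. Without XY-sry replicate 2 the globin SDs were 0.347 to 0.404, still at percentile 99.10 to 99.48. Bpgm, at 0.0919 to 0.117, lay at percentile 45.19 to 64.90.

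Alpha and beta globin varied together from array to array. Between the 4 globin probe sets the Pearson r over 12 arrays was 0.9941 to 0.9992, and the alpha globin probe sets read the same genes. Against alpha globin 1428361_x_at, 4 relations were tested by permutation (100000 resamples, two-sided, adjusted over the 4). Beta globin gave r = 0.997 and Spearman's rho = 0.991 (permutation p = 1e-05 for both, the smallest these resamples can give; adjusted p = 4e-05). Leaving out the 2 arrays farthest from the alpha globin median, XY-sry replicate 2 and XX replicate 3, r was 0.999, and over deviations from the group means it was 0.996.

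Alas2 gave r = 0.823 (permutation, adjusted p = 0.0004) and rho = 0.739 (adjusted p = 0.0161). Without those 2 arrays r was 0.733 (permutation, adjusted p = 0.032) and rho 0.584 (adjusted p = 0.163). Without XY-sry replicate 2 alone r was 0.779 (permutation, adjusted p = 0.00994) and rho 0.661 (adjusted p = 0.0618). The rank relation also missed the threshold without XXsry replicate 2 alone (rho = 0.661, permutation, adjusted p = 0.0619), and passed without XX replicate 3 alone (adjusted p = 0.0453). Over deviations from the group means, with XY-sry replicate 2 included, r was 0.909 (permutation, adjusted p = 0.00044) and rho 0.823 (adjusted p = 0.0033). Neither Slc4a1 (r = -0.0857, rho = -0.217) nor Bpgm (r = -0.0474, rho = -0.182) passed (permutation, adjusted p of r = 0.88 for both), each read by its brightest probe set. The other Bpgm probe sets had their highest value in XY-sry replicate 2 (7.36 and 6.98), and for the mean of its 3 probe sets r was 0.4 (permutation, adjusted p = 0.264). The arrays share normalization and, within a group, genotype.

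**Figure D3:**
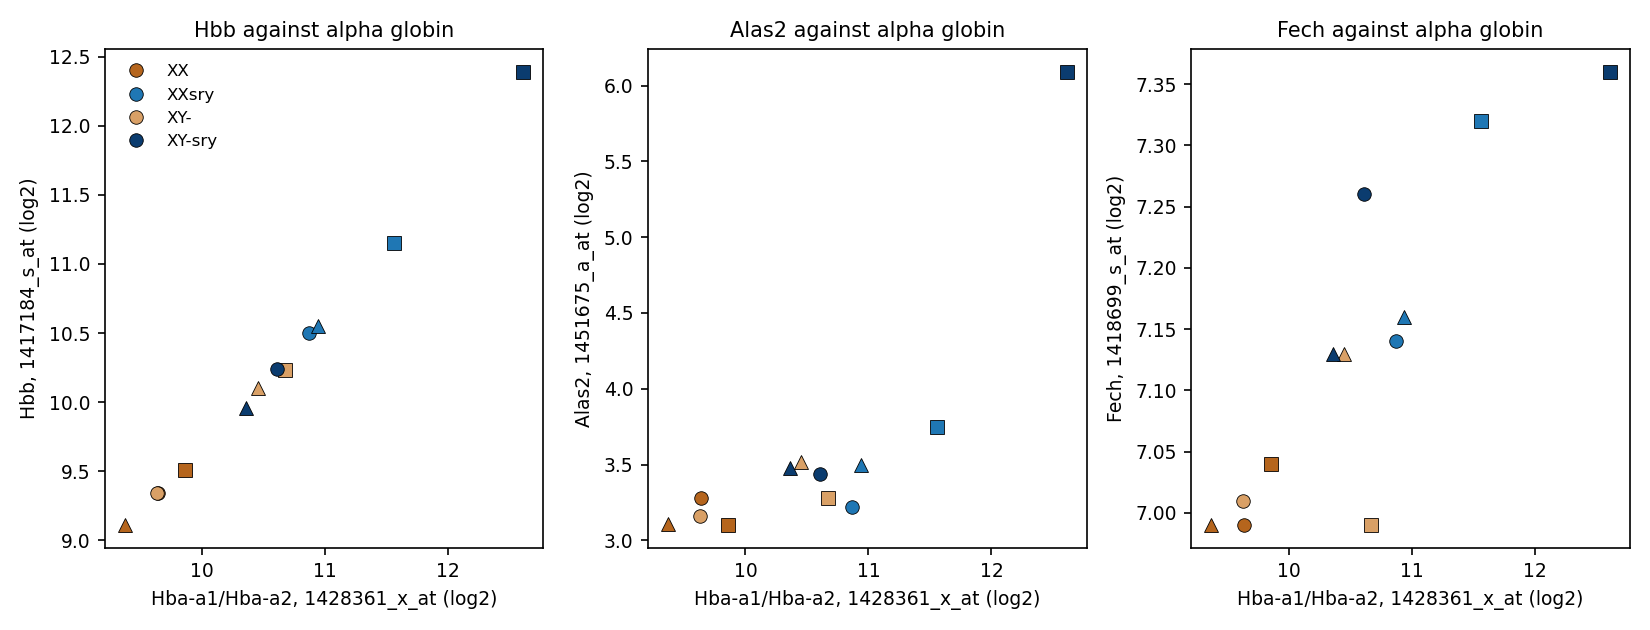
Log2 value of beta globin, Alas2 and Fech (y axes, which differ) against alpha globin 1428361_x_at (x axis), 1 point per array, coloured by group, with circle, square and triangle for replicates 1, 2 and 3. Beta globin follows alpha globin along a line (r = 0.997), Alas2 rises clearly only in XY-sry replicate 2 (r = 0.823), and Fech spans 6.99 to 7.36 (r = 0.87 with the mean of the globin probe sets).

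Globin averaged higher in the groups with Sry, short of the threshold with all arrays in the fit. Averaged over complement, the groups with Sry exceeded those without by 1.22 ± 0.341, 1.19 ± 0.326 and 1.44 ± 0.424 in the alpha globin probe sets 1428361_x_at, 1452757_s_at and 1417714_x_at, and by 1.19 ± 0.353 in beta globin (standard error, 6 arrays on each side). These are 2.28-fold to 2.72-fold, and none passed: the limma adjusted p-values were 0.0543, 0.0507, 0.0648 and 0.0657. In this contrast 0 of 7 red cell probe sets were called, against 6.56% of all probe sets tested; at an unadjusted p under 0.05 they were 4 of 7, the globin ones, against 24.9% of all. No globin probe set separated all 6 arrays with Sry from all 6 without, which 2.28% of probe sets did with Sry higher. XY-sry replicate 2 raised both the difference and its error. Without it the differences were 0.87, 0.86, 0.98 and 0.81, all 4 were called (limma adjusted p = 0.0301, 0.0289, 0.0223 and 0.0259), and the background was 6.27%. All 4 were also called without XY-sry replicate 3, where the background was 3%, and 2 without XY- replicate 2, where it was 9.75%. None was called with any other single array left out.

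Within XX the groups did not overlap. XXsry exceeded XX by 1.50 ± 0.482, 1.49 ± 0.461 and 1.73 ± 0.599 in alpha globin and 1.41 ± 0.499 in beta globin, or 2.66-fold to 3.31-fold (3 arrays per group). All 4 globin probe sets, which vary together, had every XXsry array above every XX array, as had 10.8% of all probe sets tested. In the fit to 4 groups none passed (limma adjusted p = 0.225, 0.209, 0.264 and 0.275; 0.742% of probe sets called). That fit takes its error from all groups, XY-sry included. Without XY-sry replicate 2, which leaves these group means as they are, all 4 passed (adjusted p = 0.0312, 0.0290, 0.0223 and 0.0264; 0.747% called). That array is the highest in these same probe sets, and leaving it out narrows the error, so these calls are not independent evidence. No globin probe set passed with any other single array left out. With XX and XXsry alone in the fit all 4 passed too (adjusted p from 0.0110 to 0.0117; 1.21% called).

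Within XY- most of the difference came with 1 array. XY-sry exceeded XY- by 0.94 ± 0.482, 0.89 ± 0.461, 1.16 ± 0.599 and 0.97 ± 0.499 in the same order, with no call (limma adjusted p = 0.243, 0.246, 0.247 and 0.244), where 8.64% of probe sets were called. Without XY-sry replicate 2 the differences were 0.21 to 0.24 (adjusted p = 0.653 to 0.670, with 7.76% called). No globin probe set had XY-sry above XY- without overlap, against 18% of all probe sets. The difference between these contrasts was itself tested as the interaction of Sry with complement. It was -0.56, -0.60, -0.57 and -0.44, with no call (limma adjusted p = 0.785, 0.756, 0.829 and 0.843; 1.29% called), and its 95% interval for 1428361_x_at ran from -2.05 to 0.93. Without XY-sry replicate 2 it was -1.27, -1.27, -1.49 and -1.20, again with no call (limma adjusted p = 0.147, 0.136, 0.0974 and 0.122; 2.18% called), and the interval was -2.12 to -0.41.

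**Figure D4:**
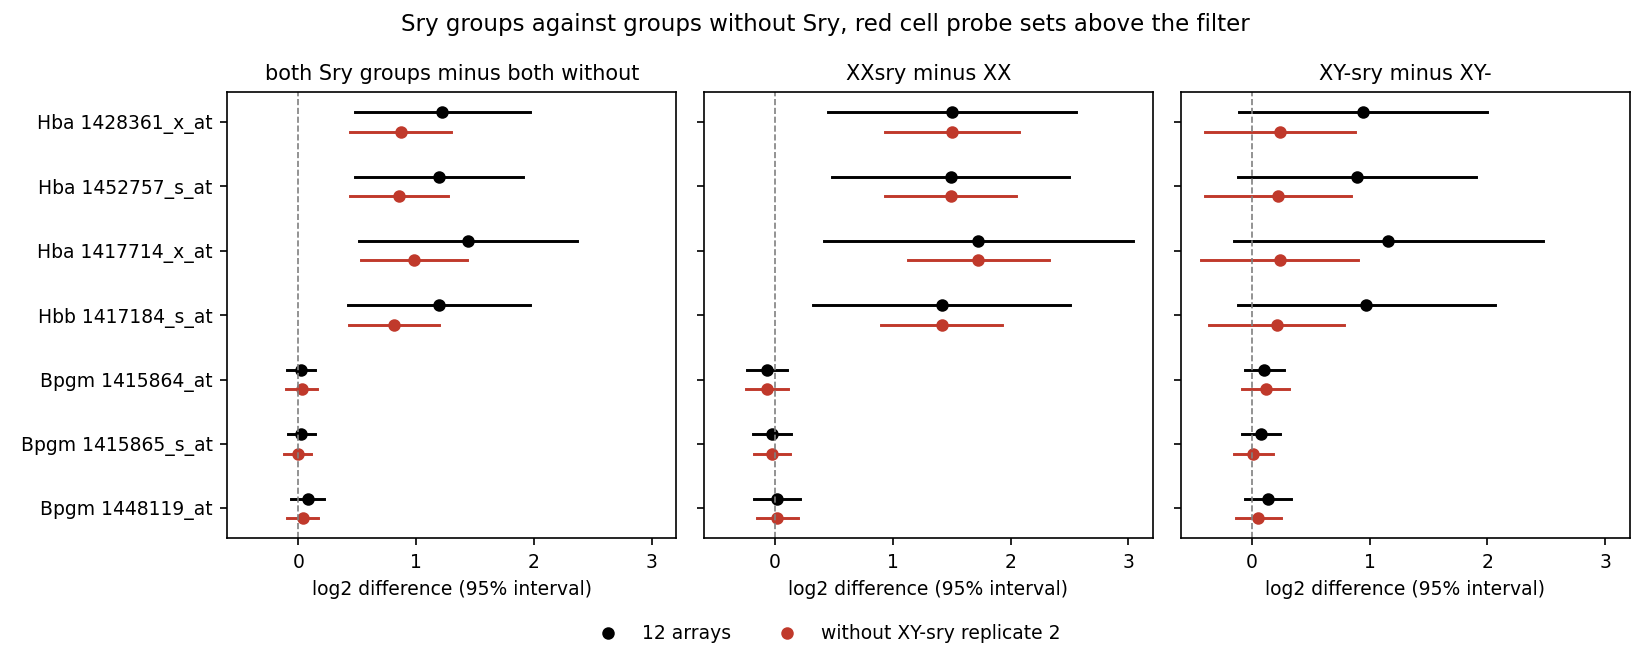
Log2 difference between groups with and without Sry (x axis) for the 7 red cell probe sets above the filter (y axis), averaged over complement, within XX and within XY-; lines are 95% intervals from limma, black for 12 arrays and red without XY-sry replicate 2. Globin differences of 0.89 to 1.16 within XY- drop to 0.21 to 0.24 without that array, those within XX keep their value with a narrower interval, and Bpgm stays near 0.

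Complement itself was not called for any red cell gene. XX and XXsry together differed from XY- and XY-sry by -0.35, -0.29, -0.45 and -0.35 in the globin probe sets (limma adjusted p = 0.998 for each; 0.0893% of probe sets called). For 1428361_x_at the 95% interval was -1.09 to 0.40. Without XY-sry replicate 2 the differences were 0.01, 0.05, 0.02 and 0.03 (limma adjusted p = 0.999 for each; 0.0614% called), and that interval was -0.42 to 0.43. Without Sry, XX lay below XY- by -0.63, -0.59, -0.73 and -0.57 (adjusted p = 0.685 to 0.726; 0.0781% called). Here XY- replicate 1 lay among the XX arrays and XY- replicates 2 and 3 above them. With Sry the differences were -0.07, 0.01, -0.16 and -0.13 (adjusted p = 0.985 to 1; 0.128% called) and, without XY-sry replicate 2, 0.64, 0.68, 0.76 and 0.63 (adjusted p = 0.407 to 0.494; 0.842% called).

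The other red cell genes were not called in any contrast. Bpgm differed with Sry by 0.02 ± 0.055, 0.03 ± 0.053 and 0.08 ± 0.063 in its 3 probe sets (limma adjusted p = 0.865, 0.817 and 0.487). The 95% intervals were -0.10 to 0.14, -0.09 to 0.14 and -0.06 to 0.21, below the globin differences of 1.19 to 1.44. Whether this Bpgm signal comes from red cells was not tested. Alas2, in the fit without the filter, differed by 0.67 ± 0.354 (adjusted p = 0.409), and by 0.23 without XY-sry replicate 2 (adjusted p = 0.267). Its difference was 0.33 within XX and 1.02 within XY-, the latter 0.14 without that array. Slc4a1 differed by -0.04, -0.04 and 0.07. The dim Hbb-b2 probe set 1427866_x_at differed by 0.44 ± 0.163 (adjusted p = 0.213) and, without XY-sry replicate 2, by 0.24 (adjusted p = 0.041).

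Other genes of haem synthesis and iron entry were measured in 13 of 17 listed, and 2 rose with Sry and 0 fell, where 3.95% of all probe sets tested were called higher and 2.61% lower. Alad, the second enzyme of the pathway, read 7.86, 7.92 and 7.70 in XX, 8.00, 8.10 and 8.11 in XXsry, 7.67, 7.67 and 7.62 in XY-, and 7.87, 7.91 and 7.96 in XY-sry. Each Sry group lay above its own control without overlap, as in 10.8% of all probe sets tested within XX and 18% within XY-. The difference was 0.25 ± 0.044 on average (limma adjusted p = 0.00838), a call kept in 21 of 21 alternatives. Fech inserts iron into the ring as the last step. It read 6.99, 7.04 and 6.99 in XX, 7.14, 7.32 and 7.16 in XXsry, 7.01, 6.99 and 7.13 in XY-, and 7.26, 7.36 and 7.13 in XY-sry. Its highest array was XY-sry replicate 2, XXsry lay above XX without overlap, and XY-sry replicate 3 equalled XY- replicate 3.

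Fech rose by 0.20 ± 0.050 (limma adjusted p = 0.0354, past in 10 of 21 alternatives). Its call was lost with quantile scaling (limma adjusted p = 0.0508) and with no filter (0.0896). It was also lost without any XX array, XXsry replicates 2 or 3, XY- replicate 1 and XY-sry replicates 1 or 2 (adjusted p = 0.0613 to 0.0813). The transferrin receptor Tfrc rose within XY-, by 0.28 (adjusted p = 0.0388, past in 9 of 22 alternatives), a contrast in which Alad rose by 0.26 (adjusted p = 0.027, past in 13 of 22; 4.27% of all were called higher there). The list median with Sry was 0.017, beside 0.0167 over all probe sets tested, and genes such as Alas1 (-0.03), the non-erythroid form of Alas2, Slc25a37 (0.03) and Urod (0.12) did not pass.

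The membrane, skeleton and transcription factor genes tested did not follow globin as groups. They were 5 of 18 listed membrane and skeleton genes and 4 of 12 listed factors and receptors. Listed genes below the filter had no part in these groups, among them the precursor markers given further on. Of the 5, 1 rose, where 3.95% of all probe sets tested were called higher. That was the water channel Aqp1, also found in vessel walls, by 0.35 ± 0.091 (limma adjusted p = 0.0451, past in 10 of 21 alternatives). Its call was lost without any XX or XXsry array, XY- replicate 1 and XY-sry replicates 1 or 3 (adjusted p = 0.0611 to 0.0924). In XY-sry replicate 2 Aqp1 read 7.16, below the 7.38 and 7.68 of the other XY-sry arrays. The rest were Ank1 (0.03), Dmtn (0.00), Gypc (-0.10) and Slc2a1 (-0.02), and the list median was 0.002. Markers of nucleated red cell precursors were dim: the Rh-associated glycoprotein Rhag had a mean of 2.17, the factor Klf1 ran from 3.02 to 3.59 and Gata1 from 4.06 to 4.37. In XY-sry replicate 2, Klf1 read 3.42 and Gata1 4.29, within the range of the other arrays. Of 4 transcription factor genes tested 0 were called (limma), and Ldb1 (0.01), Zfpm1 (0.12) and Lmo2 (-0.08) had the highest means.

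Red cell enzymes and antioxidants were called in 1 of 10, and that 1 fell. Of all probe sets tested 6.56% were called, 2.61% of them lower as a share of all. Car2, a carbonic anhydrase, read 6.64, 6.57 and 6.59 in XX, 6.32, 6.32 and 6.35 in XXsry, 6.46, 6.51 and 6.83 in XY-, and 6.41, 5.89 and 6.07 in XY-sry. Car2 averaged lower in the groups with Sry, where globin averaged higher, with a difference of -0.37 ± 0.085 (limma adjusted p = 0.0269). It was lowest in XY-sry replicate 2. The call was lost without any XX or XXsry array or XY-sry replicate 3 (adjusted p = 0.0503 to 0.0656). Within XY- Car2 was also lower, by -0.48 (adjusted p = 0.0322, past in 16 of 22 alternatives; 4.37% of all were called lower there). Sod1, the cytosolic superoxide dismutase, rose there by 0.26 (adjusted p = 0.0263, past in 17 of 22 alternatives), and Gpx1 (-0.03 averaged over complement) and Prdx2 (0.04) did not pass. The list median was 0.015.

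Genes of macrophages that break down haem had 1 of 8 lower with Sry, where 2.61% of all probe sets tested were called lower. Slc40a1 (ferroportin), which exports iron from such cells, read 8.37, 8.15 and 8.07 in XX, 7.86, 7.80 and 7.66 in XXsry, 7.93, 7.86 and 8.00 in XY-, and 7.80, 7.08 and 7.51 in XY-sry. Its mean was lower with Sry in XX and in XY-, by -0.45 ± 0.103 on average (limma adjusted p = 0.0284). XY-sry replicate 2, highest in globin, was lowest. The call was lost without XX replicates 1 or 2, XXsry replicates 2 or 3, XY- replicate 1 or XY-sry replicate 3 (adjusted p = 0.0519 to 0.0712). The list median was -0.154. Hmox1, the haem oxygenase, ran from 5.75 to 6.30, and the ferritin chain Fth1 from 11.97 to 12.13, neither called.

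**Figure D5:**
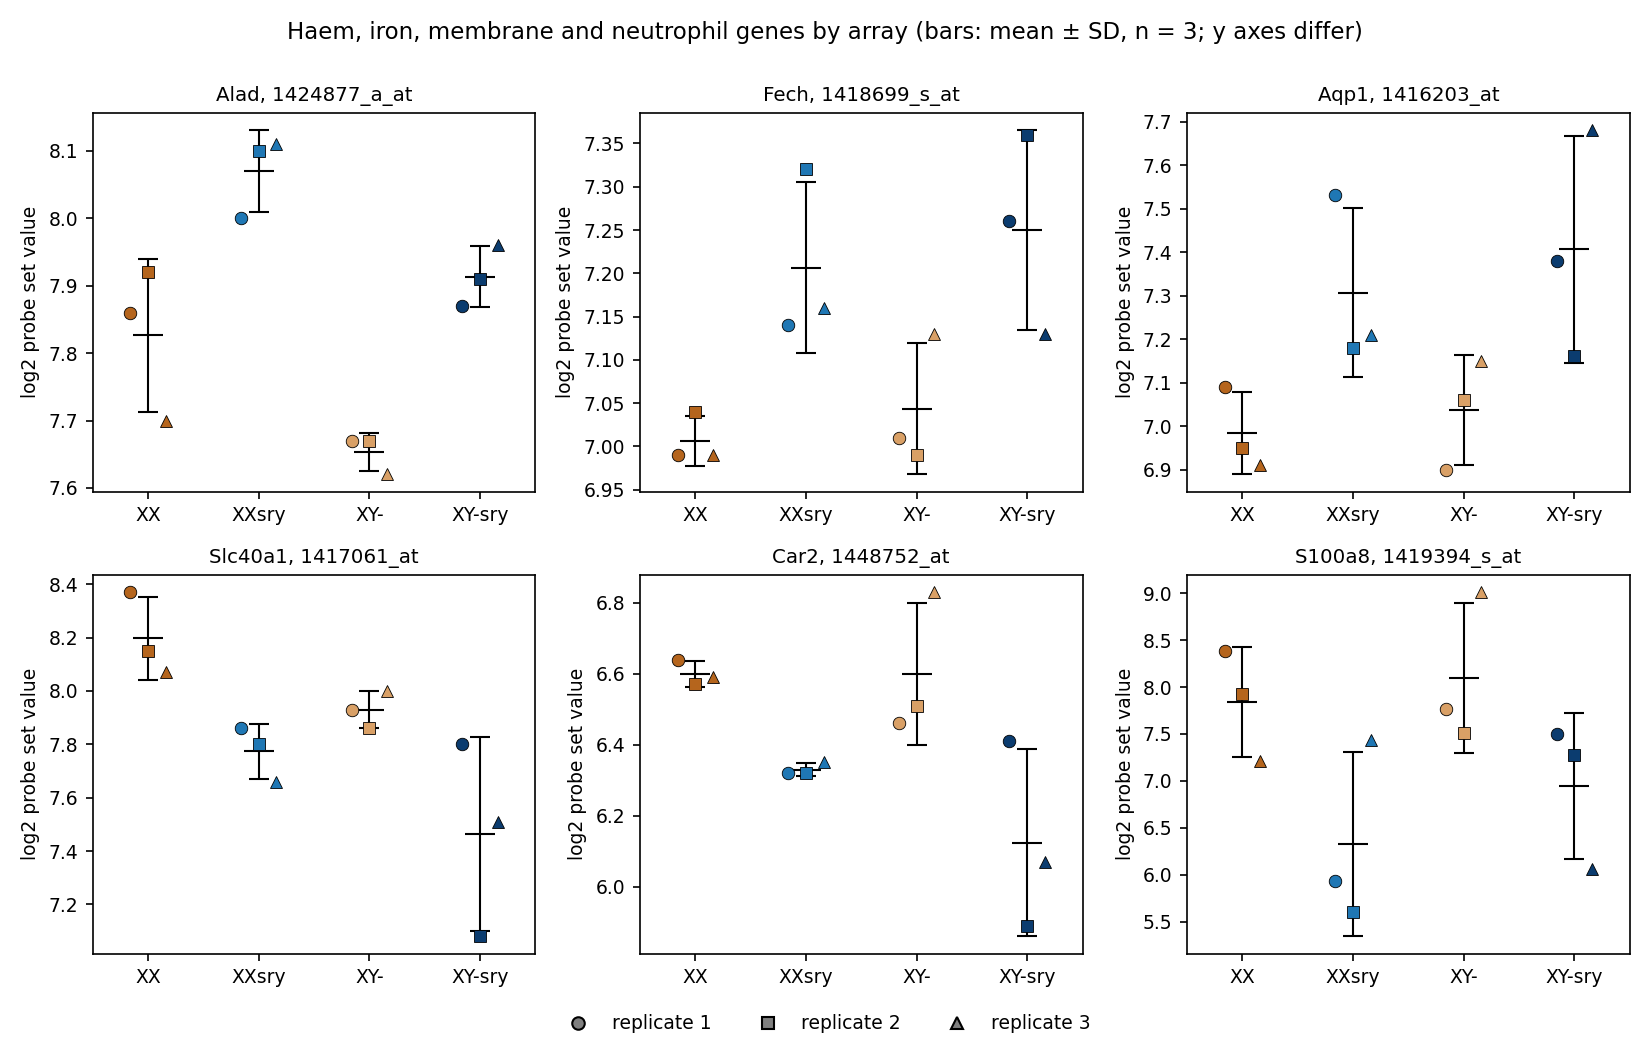
Log2 value of Alad, Fech, Aqp1, Slc40a1, Car2 and S100a8 in 12 arrays (y axes, which differ) by group (x axis), with mean ± SD of 3 arrays and marker shape for the replicate. Alad is higher in each Sry group than in its control, Slc40a1 and Car2 are lower, and S100a8 varies from 5.60 to 9.01 with XX and XY- above the lower Sry arrays.

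Markers of other blood cells were not called. Of 10 listed platelet genes, which arrive with blood, 3 were tested, with 0 called (limma) and a median of 0.062. Pf4 ran from 3.91 to 4.75 and Ppbp from 2.25 to 2.68, both below the filter and so not among the 3. The mean of the 3, centred on all arrays, was 0.010 to 0.057 in XX, 0.003 to 0.140 in XXsry, -0.227 to -0.010 in XY- and -0.073 to 0.073 in XY-sry, and 0.073 in XY-sry replicate 2. Neutrophil genes averaged lower with Sry, with 0 of 7 called (limma) and a median of -1.033. S100a8, a calcium-binding protein of neutrophils, was 8.38, 7.93 and 7.21 in XX, 5.93, 5.60 and 7.44 in XXsry, 7.77, 7.51 and 9.01 in XY-, and 7.50, 7.28 and 6.06 in XY-sry (adjusted p = 0.0597). Scores of the 7 genes were -0.128 to 0.645 in XX, -0.995 to 0.054 in XXsry, 0.051 to 1.342 in XY- and -0.876 to 0.119 in XY-sry, with -0.092 in XY-sry replicate 2. Thymocyte genes had 1 of 9 called, where 2.61% of all probe sets tested were called lower. That was Rag2 (-0.19, limma adjusted p = 0.0222, past in 16 of 21 alternatives). Within XX Rag2 differed by -0.30 (limma adjusted p = 0.036, past in 8 of 22 alternatives), where 0.351% of all were called lower. Thymic epithelium had 0 of 7 called (limma). No gene of any list was called for complement or for the interaction (limma). The part that blood content or these cell types have in the globin differences was not tested.

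RNA quality, read as the actin 3' minus 5' difference, was 0.51 (XY- replicate 2) to 0.83 (XY-sry replicate 1). It was 0.83, 0.74 and 0.80 in XY-sry and 0.69, 0.51 and 0.68 in XY-, so these groups did not overlap in it. With this difference as a covariate the globin differences with Sry were 1.68, 1.60, 1.97 and 1.62 and all 4 were called (limma adjusted p = 0.0376, 0.0400, 0.0466 and 0.0491), against 4.83% of all probe sets tested. Within XX none was called (1.07% of all called). Within XY- the globin differences with it were 1.85, 1.71, 2.22 and 1.83, not called (adjusted p = 0.164 to 0.187), and the share of all probe sets called there was 0.301% where it had been 8.64%. Calls lost with it were those of Fech (adjusted p = 0.104), Aqp1 (0.12) and Rag2 (0.0693) averaged over complement, and of Alad (0.11), Tfrc (0.156), Car2 (0.0955) and Sod1 (0.347) within XY-. The part of RNA quality in these differences was not tested further.

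Genes whose array pattern was most like globin spanned far smaller ranges than globin. Likeness was Pearson's r over 12 arrays with the mean of the 4 globin probe sets, each centred, among 15762 tested single-gene probe sets that are not red cell members. Their median r was -0.033, and 1 exceeded 0.9. That was Eif4b, a translation initiation factor, at r = 0.94 (0.936 without XY-sry replicate 2). It was 9.97, 9.96 and 9.96 in XX, 10.07, 10.10 and 10.06 in XXsry, 9.99, 10.03 and 9.99 in XY- and 10.02, 10.12 and 10.00 in XY-sry, a range of 0.16 where the globin probe sets span 3.08 to 3.98. Next came Usp49 (0.878), Fech (0.87), Mta3 (0.86), Cdk16 (0.838), Bcl9 (0.831), Aimp1 (0.829), the clock output factor Dbp (0.828), the Notch ligand Dll1 (0.824) and the mitochondrial superoxide dismutase Sod2 (0.821). All but Bcl9 of these 10 had their highest value in XY-sry replicate 2. Without that array the r of Mta3 fell to 0.673 and that of Cdk16 to 0.645. The lowest r belonged to Fam214a (-0.906), the calcium channel gene Orai1 (-0.887), Rfx5 (-0.883), Egr1 (-0.87) and Tuba1a (-0.864), with ranges of 0.35 to 0.46. With 12 arrays and this many probe sets these r values are a description only.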

How the data were processed

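Thymus RNA was measured on 12 arrays in 4 groups of 3. The log2 values analysed were deposited by the authors and made with RMA, per the submitters' processing notes. Its version is not given in the sources here, and no scanner intensities were used. RMA scales arrays to one distribution and compresses differences near background, so changes in dim probe sets such as Alas2 may be understated. Gene symbols came from the platform table (34958 probe sets with 1 symbol, 932 with several, 9211 not named), and coordinates and promoters from RefSeq on GRCm38.p6.

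After 64 controls were dropped, the 17925 of 45101 probe sets averaging at least 5 were tested. A mean per group was fitted with limma 3.58.1 (R 4.3.3), and p-values were adjusted by Benjamini-Hochberg over all probe sets tested, with a threshold of 0.05. Correlations and figures used Python 3.11.15, scipy 1.17.1 and matplotlib 3.10.9. The members and lists were chosen with earlier results of these data known. Names printed are every member and the 10 highest and 5 lowest correlates of globin. Of each list they are the genes past the threshold or otherwise the 3 with the highest mean. The names given for platelets, neutrophils and thymic epithelium depart from this rule. Other list genes were named after their values were seen. Of list genes without a probe set of their own, none was analysed here.

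On simulated data for 17925 probe sets, of which 200 were shifted by 1, the fit recovered 100% of the shifted ones for Sry averaged over complement, 98.5% within XX and 97% within XY-, with 18, 16 and 12 false calls. For shifts of 0.5 it recovered 94%, 75.5% and 64.5%, with 9, 6 and 5 false calls. The shifted probe sets were drawn at random and kept their own SD, whose median over all tested was 0.0972. Globin SDs were 0.680 to 0.886, so these shares do not hold for the globin probe sets. The labels do not say that replicate numbers pair the samples, and the arrays did not meet the rule used for pairing, a correlation of deviations over 0.1 in every same-number pair. Alternatives were other filters (none, or at least 6), centring each array on its median, quantile scaling, robust variance moderation with an intensity trend, weights per array, a fit to the compared groups alone, a block for the replicate number, the actin difference as a covariate, an adjusted p under 0.1, and each array left out in turn.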

Additional observations from a re-analysis of the deposited data

How the results depend on the processing

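Of 911 values recomputed under an alternative, 767 were the same, 86 weaker and 57 stronger, and 1 SD moved by over 1.5 times. Same means on the same side of the threshold, a count of called probe sets still at 0, or an SD within 1.5 times. Weaker means a call lost. Stronger means a call gained or a count above 0, also where only the threshold was loosened to 0.1. A sign changed in 20, none of them called. The globin difference with Sry was above zero in 84 of 84 recomputed values (0.81 to 1.97), as it was within XX (88 of 88, 1.21 to 1.89) and within XY- (88 of 88, 0.21 to 2.22). These counts are not independent, as the 4 globin probe sets vary together. Changes of filter, threshold, variance moderation or replicate block leave a difference as it was. Within XX or XY-, so does leaving out an array of a group not compared. The call of the globin difference, close to the threshold, depended on the fit. Averaged over complement, 0 of 7 red cell probe sets were called in the fit as reported. The count was 2 with a filter of at least 6 (7.99% of all probe sets called) and with median centring (6.37%). It was 4 with array weights (24.3%), the actin covariate (4.83%), an adjusted p under 0.1 (13.1%) or the replicate number as a block (7.35%; limma adjusted p = 0.0197, 0.0207, 0.0268 and 0.0296 for 1428361_x_at, 1452757_s_at, 1417714_x_at and 1417184_s_at). Pairing was not settled: 8 of 18 pairs of arrays with the same number had a correlation of deviations over 0.1, against 4 of 36 pairs with different numbers. Leaving out 1 array gave 0 to 4. Within XX the count was 2 with array weights (7.36% of all called), 4 with only these groups (1.21%), and 0 to 4 leaving out 1 array. Within XY- it was 4 with array weights (23.7%), and 0 to 0 leaving out 1 array. The median within-group SD of the globin probe sets (0.724 as reported) was 0.381 to 0.774 leaving out 1 array, lowest without XY-sry replicate 2. Where a call changed, the cause was not tested. Probe sets near background, among them Alas2 and Slc4a1, limit what can be said of them.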
